A study of Mus musculus with 11 samples.

Results

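The genes described here encode adipokines, the hormones and other signalling proteins that adipose tissue releases into the blood or to neighbouring cells. They were taken by gene symbol from a list of 10: Lep, Adipoq, Retn, Nampt, Rarres2, Nrg4, Metrnl, Fgf21, Agt and Dpp4. Of these genes, 9 had a row in the tables of 15453 genes, and Fgf21 was not analysed here. Leptin, the product of Lep, is made by adipocytes in proportion to their fat stores and acts on the brain to restrain feeding, whereas adiponectin, from Adipoq, is the abundant insulin-sensitising hormone that usually declines in the blood as fat mass grows. The other products reach inflammatory, vascular and metabolic targets: resistin (Retn) and chemerin (Rarres2) act through immune and endothelial receptors, NAMPT makes a precursor of NAD, neuregulin 4 (Nrg4) and meteorin-like (Metrnl) signal to other organs and to immune cells, angiotensinogen (Agt) feeds the renin-angiotensin system, and DPP4 is a membrane protease, also shed, that inactivates incretin hormones.

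Serial analysis of gene expression (SAGE) was performed on RNA of epididymal white adipose tissue (eWAT), the visceral fat pad next to the epididymis, from 6 wildtype (WT) and 5 Mest pKO male mice of the C57BL/6 strain by the labels, C57BL/6J in the study. Mest pKO mice inherited from their father an allele of Mest without exon 3, produced by global Ella-cre recombination of a floxed allele, and kept an intact maternal allele, which is normally silent because Mest is imprinted. WT and Mest pKO mice were littermates from WT females and males carrying the inactive allele on their maternally inherited chromosome. All 11 mice were 16 weeks old and had eaten a high fat diet from week 8, for 8 weeks, so neither a lean group nor a chow group was compared. The mice were selected from a larger cohort in which fat mass also differed with genotype. For the sequenced mice the study reports a higher ratio of fat to lean mass in WT than in Mest pKO mice. Fat mass of single mice was not analysed here, so genotype and fat mass cannot be told apart in any difference below. In whole tissue, fewer cells of a type and less RNA per cell cannot be told apart either. Each library held 9659740 to 14825727 tags. Mest averaged 25107 ± 2672 normalized tags in WT mice (SD, n = 6) and 1663 ± 566 in Mest pKO mice (SD, n = 5), and the libraries of both genotypes matched their labels in this respect. The adipocyte markers Fabp4, Plin1 and Cidec were present in every library, while the brown adipocyte markers Cidea and Cox8b had WT means of 3.47 and 21.8 normalized tags, and Ucp1 was not analysed here.

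In SAGE each transcript is cut by NlaIII at every CATG and is counted by the short tag next to the cut nearest its 3′ end. Because a transcript gives 1 tag whatever its length, levels can be compared between genes without dividing by length. The tags of the 4 genes on which the comparisons below turn are shown 5′ to 3′ as read from the GENCODE transcripts of GRCm38 (mm10), with the NlaIII site in capitals. The length of 25 bases was chosen here for display.
Lep: CATGccagcactcaaaaaccttggg
Adipoq: CATGctatttttctgctcactgtac
Rarres2: CATGaagtgcttgctgatctcccta
Dpp4: CATGcgctaagggaaggccgccctg
The Lep tag lies at chr6:29073199-29073223 on the plus strand, in the 3′ untranslated part of exon 3 and 679 bases before the annotated transcript end. The Adipoq tag, at chr16:23157882-23157906 on the plus strand, is in the 3′ untranslated part of exon 3, 147 bases before the end. Dpp4 is tagged at chr2:62330256-62330280 on the minus strand, in the 3′ untranslated part of exon 26 and 208 bases before the end. Rarres2 differs from the others, since its transcript of 795 bases holds only 1 NlaIII site. That site overlaps the start codon in exon 2, at chr6:48572244-48572268 on the minus strand, 611 bases before the end, and all 4 coding transcripts of the gene share this tag. The Lep and Adipoq tags were each the 3′-most tag of only 1 of the 2 coding transcripts of the gene, and Dpp4 has 1 coding transcript. None of the 4 tags was the 3′-most tag of another annotated gene. In Nampt and Agt the last site lies 17 and 18 bases before the annotated end, too near it for a tag of 25 bases from the annotated transcript, and how the authors assigned tags to these genes is not given in the sources used here.

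Adipoq was the most abundant adipokine transcript, with a mean over the 11 mice of 69565 normalized tags, the tag count of a library divided by the authors' size factor. It ranked 9 among all genes and took 0.567% of the tags. Lep followed at 44732 (rank 23, 0.364% of the tags), then Retn at 12205, Rarres2 at 2968, Dpp4 at 1002, Nampt at 924, Metrnl at 518, Nrg4 at 400.2 and Agt at 345. The order from Adipoq down to Dpp4 held between neighbours in 11 of 11 mice, with Adipoq between 1.03 and 3.45 times as high as Lep in single mice. Dpp4 exceeded Nampt in only 7 of 11 mice, Metrnl exceeded Nrg4 in 9 and Nrg4 exceeded Agt in 8, so these neighbours were not separated beyond the spread between mice. Over the 11 mice the highest value was between 1.57 times the lowest, for Nampt, and 3.37 times the lowest, for Metrnl.

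Counting error at these depths gives a coefficient of variation from 0.374% for Adipoq to 5.28% for Agt, below the spread between mice in each of the 9 genes. Rarres2, the chemerin gene, was the most variable of the 9 genes in both genotypes, with a coefficient of variation of 34.3% in WT and 48.0% in Mest pKO mice, against a median over 9906 genes of 15.5% and 23.2%. Agt varied least in WT mice (10.05%), and Dpp4 varied least in Mest pKO mice (13.1%).

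**Figure D1:**
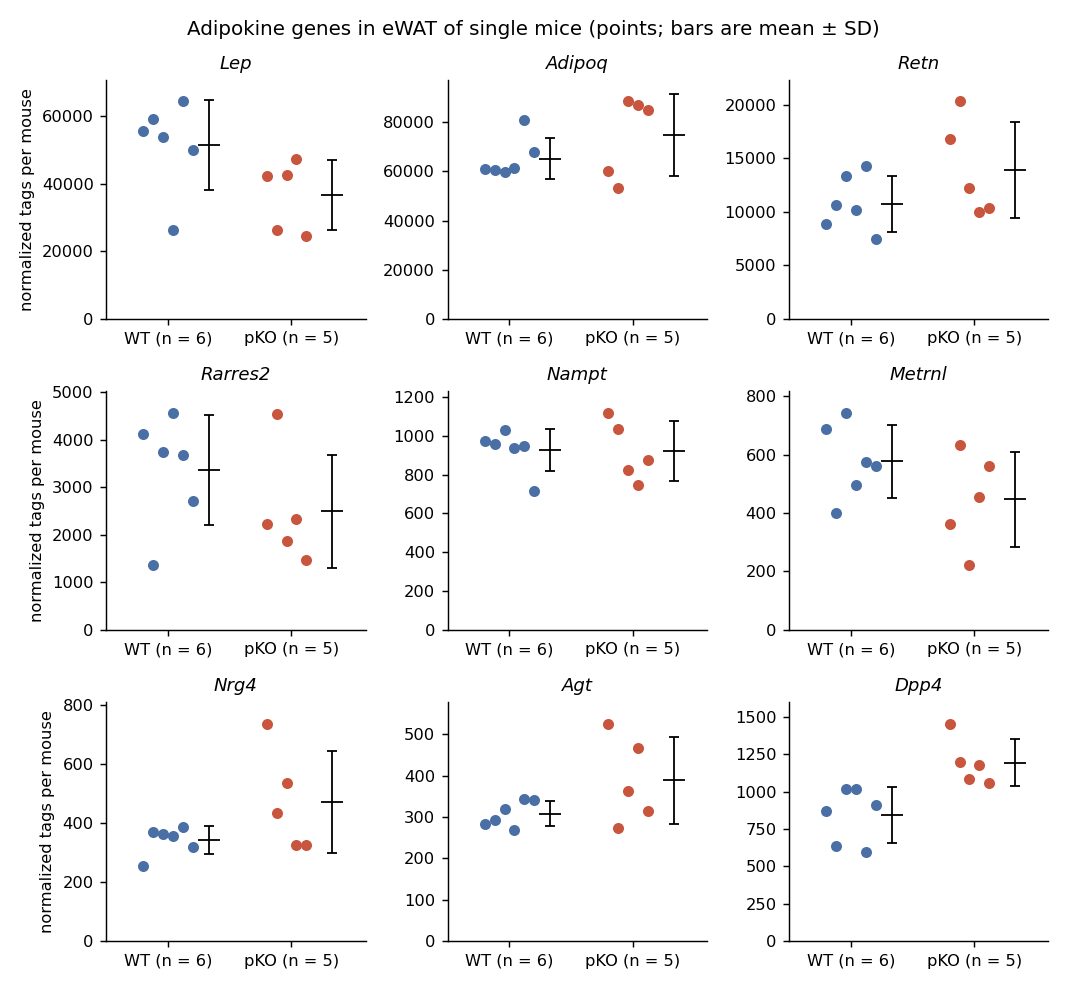
Normalized tags (vertical axis, from 0) of the 9 adipokine genes in single mice, with WT mice in blue and Mest pKO mice in red. Black bars give the mean and SD. Dpp4 is the only gene here whose WT values, at most 1020, all lie below the Mest pKO values, at least 1058.

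The main question was whether adipokine expression differed with paternal Mest inactivation. None of the 9 genes reached an adjusted p of 0.1, the threshold that the study used, in limma over all genes. Their adjusted p-values ran from 0.370 to 0.981. For comparison, 0.0505% of the 9906 genes that reached a mean of 50 normalized tags in WT or Mest pKO mice were called at that threshold, 0.0404% with lower and 0.0101% with higher expression in Mest pKO mice. At an unadjusted p of 0.05, 1 of the 9 genes was called, Dpp4, where 10.6% of all genes were called in either direction (5.77% lower and 4.85% higher). The count tests edgeR and DESeq2, run on the recovered tags, called 0 of the 9 genes after adjustment and 2 and 3 genes without it. Dpp4 and Nrg4 were called by both of them, and Lep by DESeq2. Of the 9906 genes, edgeR called 480 lower and 515 higher without adjustment, and DESeq2 521 lower and 607 higher. In 5 of the 9 genes the mean was higher and in 4 lower in Mest pKO mice. The median log2 fold change, Mest pKO minus WT, was 0.18 over the 9 genes against 0.01 over all genes. Log2 fold changes are on the scale log2(value + 1).

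**Figure D2:**
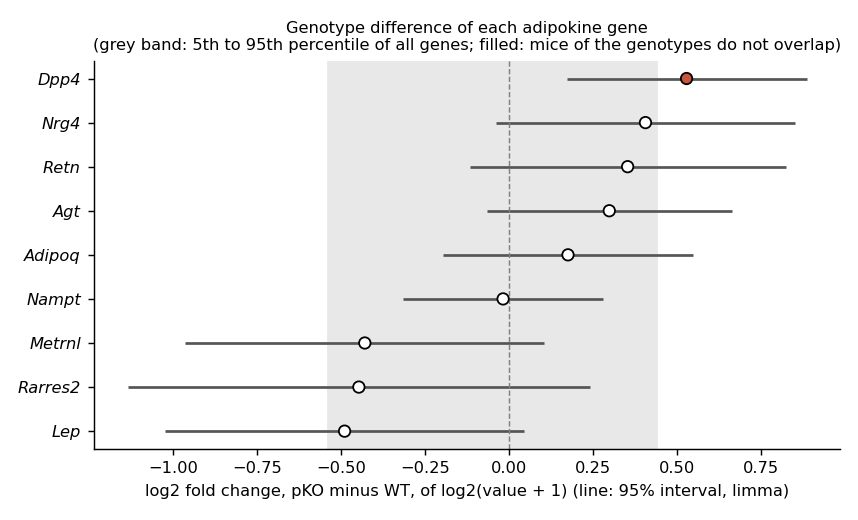
Log2 fold change, Mest pKO minus WT, of each adipokine gene (horizontal axis) with its 95% interval from limma. The grey band holds the 5th to 95th percentile of the 9906 genes (-0.54 to 0.44), and the filled point marks Dpp4, whose genotypes do not overlap. Its interval, 0.17 to 0.89, is the only 1 of the 9 that does not include 0.

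Lep, the leptin gene, had a lower mean in Mest pKO mice, but the genotypes overlapped. In WT mice Lep ranged from 26224 to 64369 normalized tags with a median of 54768. The 5 Mest pKO mice had 42159, 26342, 42535, 47395 and 24601. All 5 Mest pKO values lay below the WT median, and 5 of the 6 WT values lay above every Mest pKO value. The overlap came from WT replicate 4, at 26224, which was close to the 2 lowest Mest pKO mice. WT mice averaged 51503 ± 13320 (SD, n = 6) and Mest pKO mice 36606 ± 10391 (SD, n = 5), 1.41 times as high in WT. The log2 fold change was -0.49 (standard error 0.25, 95% interval -1.02 to 0.04, limma adjusted p = 0.550). By exact permutation of all ways to split the mice, p was 0.121. Of the 9906 genes, 10.1% had an absolute log2 fold change at least as large. Without WT replicate 4 the log2 fold change was -0.67 and the limma p was 0.00564 before and 0.407 after adjustment. Without Mest pKO replicate 4 it was -0.60, with an unadjusted limma p of 0.0402, and without replicate 5 it was -0.36, with an unadjusted limma p of 0.178.

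Adipoq, the adiponectin gene, had a slightly higher mean in Mest pKO mice, and the genotypes overlapped. Its WT values ran from 59638 to 81109 with a median of 61019, and 4 of the 6 mice lay between 59638 and 61208. In Mest pKO mice the values were 59988, 53365, 88529, 87177 and 84933. In all, 3 Mest pKO mice exceeded every WT mouse and 1 lay below every WT mouse, so the genotype with the higher mean also held the lowest value. WT mice averaged 65204 ± 8345 (SD, n = 6) and Mest pKO mice 74798 ± 16757 (SD, n = 5). The difference on the log2 scale was 0.18 (standard error 0.17, 95% interval -0.20 to 0.55, limma adjusted p = 0.781). The exact permutation test gave p = 0.316. Leaving out Mest pKO replicate 2 gave 0.29, and leaving out replicate 3 or 4 gave 0.11.

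The ratio of Lep to Adipoq, a common index of the balance between both hormones, was lower in Mest pKO mice. In WT mice the ratios were 0.915, 0.975, 0.903, 0.428, 0.794 and 0.734 for replicates 1 to 6. In Mest pKO mice they were 0.703, 0.494, 0.480, 0.544 and 0.290. Again 5 of the 6 WT mice lay above every Mest pKO mouse, with WT replicate 4 as the exception. It averaged 0.792 ± 0.198 in WT (SD, n = 6) and 0.502 ± 0.148 in Mest pKO mice (SD, n = 5). The mean log2 ratio differed by -0.66, Mest pKO minus WT (two-sided exact permutation test, p = 0.0368, not adjusted for the tests of single genes). A ratio within a library does not depend on how that library was scaled. With each mouse left out the difference ran from -0.83 to -0.48. Its p was above 0.05 when any of 9 of the 11 mice was left out, where the smaller number of mice also weakens the test. The exceptions were WT replicate 4, without which the difference was -0.83 (exact p = 0.00794), and Mest pKO replicate 1, without which it was -0.80 (exact p = 0.0286). Without Mest pKO replicate 5 the difference was -0.48 (exact p = 0.1).

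**Figure D3:**
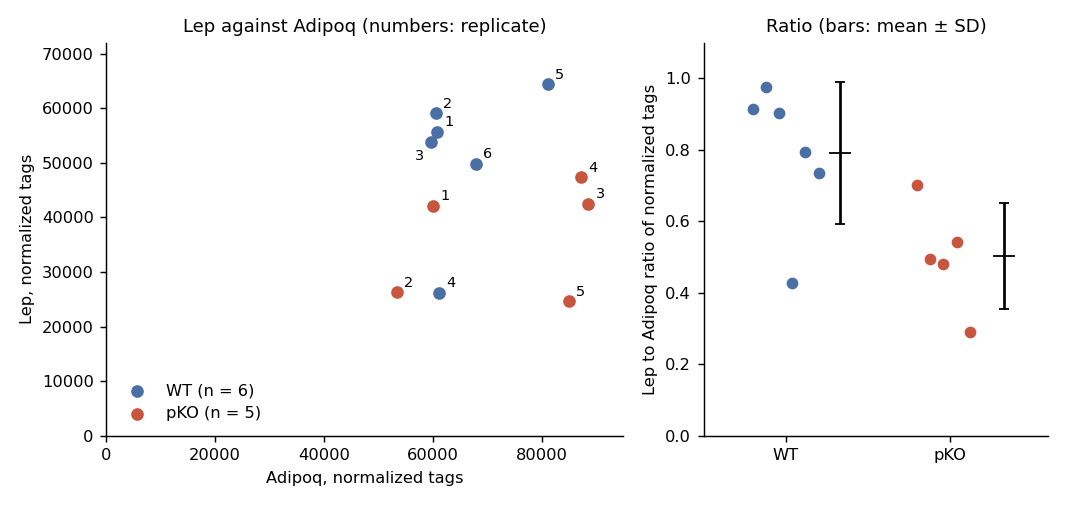
Left, Lep against Adipoq in normalized tags, with 1 point per mouse labelled by replicate (WT blue, Mest pKO red). Right, the ratio of Lep to Adipoq per mouse with mean and SD. WT replicate 4, at a ratio of 0.428, lies among the Mest pKO mice, whose ratios run from 0.290 to 0.703.

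Retn and Rarres2, which encode the inflammatory mediators resistin and chemerin, overlapped widely between genotypes. Retn ranged from 7409 to 14278 in WT mice (median 10371) and was 16822, 20319, 12199, 10020 and 10340 in Mest pKO mice. The 2 highest values of the series were both from Mest pKO mice, and the other 3 lay within the WT range. Expressed as log2 fold change, the difference was 0.35 (standard error 0.22, limma adjusted p = 0.629), and the exact permutation test gave p = 0.175. Without Mest pKO replicate 2 the log2 fold change was 0.20. Rarres2 ranged from 1371 to 4572 in WT mice (median 3710) and was 2235, 4538, 1872, 2341 and 1466 in Mest pKO mice. All 5 Mest pKO values lay within the WT range, and 4 of them below the WT median. Mest pKO replicate 2, at 4538, stood above the next Mest pKO mouse, at 2341. On the log2 scale Mest pKO minus WT was -0.45 (standard error 0.32, limma adjusted p = 0.682, exact permutation p = 0.271). It was -0.69 without WT replicate 2 and -0.69 without Mest pKO replicate 2, with unadjusted limma p of 0.0201 and 0.0360 (limma adjusted p = 0.567 and 0.351), but -0.28 without Mest pKO replicate 5.

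Nampt, which encodes the rate-limiting enzyme of NAD salvage and is also found in the circulation, had almost the same mean in both genotypes. It ranged from 716 to 1032 in WT mice (median 953) and was 1120, 1037, 823, 746 and 874 in Mest pKO mice. The means were 927 ± 109 (SD, n = 6) and 920.1 ± 155 (SD, n = 5). The log2 fold change of -0.02 had a 95% interval from -0.32 to 0.28, which spans 0.804 to 1.21 times the WT level.

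Nrg4 and Metrnl, both tied to thermogenic or beneficial signals of adipose tissue, had mean differences of opposite sign, neither past a threshold in limma. Nrg4 ranged from 255 to 387 in WT mice (median 359) and was 737, 434, 534, 324 and 326 in Mest pKO mice. In all, 3 Mest pKO mice exceeded every WT mouse and the other 2 lay within the WT range. The log2 fold change was 0.41 (standard error 0.21, limma adjusted p = 0.554, exact permutation p = 0.106). Without Mest pKO replicate 1 it was 0.23, and without replicate 4 or 5 it was 0.52, with an unadjusted limma p of 0.0266 in each (limma adjusted p = 0.444 and 0.496). Metrnl ranged from 399 to 744 in WT mice (median 568) and was 364, 634, 221, 455 and 561 in Mest pKO mice. Here 2 Mest pKO mice lay below every WT mouse and none above. The difference on the log2 scale was -0.43 (standard error 0.25, limma adjusted p = 0.608, exact permutation p = 0.165). Without Mest pKO replicate 3 it was -0.20, and without replicate 2 it was -0.58, with an unadjusted limma p of 0.0366 (limma adjusted p = 0.352).

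Agt, the precursor of the angiotensin peptides, was tightly grouped in WT mice, between 269 and 343 (median 306), and spread in Mest pKO mice, at 525, 274, 363, 467 and 314. Of the 5 Mest pKO mice, 3 exceeded every WT mouse. Expressed as log2 fold change, the difference was 0.30 (standard error 0.17, limma adjusted p = 0.594, exact permutation p = 0.128). It was 0.18 without Mest pKO replicate 1 and 0.41 without replicate 2, there with an unadjusted limma p of 0.0233 (limma adjusted p = 0.303).

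Dpp4 had the smallest p of the 9 genes, with higher values in Mest pKO mice. Its WT values were between 593 and 1020 with a median of 892. The Mest pKO values were 1454, 1195, 1087, 1177 and 1058. Every Mest pKO mouse lay above every WT mouse, a separation that 0.717% of all genes showed in this direction and 1.43% in either direction. The gap was small, since the highest WT mice had 1020 and 1018.5 and the lowest Mest pKO mouse 1058. WT mice averaged 841 ± 187 (SD, n = 6) and Mest pKO mice 1194 ± 157 (SD, n = 5), 1.42 times as high in Mest pKO. On the log2 scale Mest pKO minus WT was 0.53 (standard error 0.17, 95% interval 0.17 to 0.89). The limma p was 0.00684 and its adjusted p was 0.370, and by exact permutation p was 0.00866. The log2 fold change lay between 0.43 and 0.59 when each mouse was left out.

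DPP4 also marks interstitial progenitor cells and mesothelium in adipose tissue, so markers of these cells were examined beside it. Of 12 progenitor markers, 11 were abundant enough to test (a mean of 50 or more in a genotype) and 1, the collagen-binding proteoglycan gene Dcn, was called at an unadjusted p of 0.05, higher in Mest pKO mice (log2 fold change 0.37, limma adjusted p = 0.430). The median of the 11 was 0.08. The summed level of all 12 was 52772 to 63591 in WT and 64010 to 74475 in Mest pKO mice and did not overlap. Without Dcn it was 34812 to 39415 and 31444 to 47349, which overlapped. Of single genes, 1.43% were separated between genotypes in either direction. Pi16, which with Dpp4 defines the interstitial progenitors, averaged 554 in WT and 370.3 in Mest pKO mice. Its difference was opposite in sign to that of Dpp4 (log2 fold change -0.58, limma adjusted p = 0.662). The other markers in this list were divided. Sema3c was lower (-0.19), whereas Cd55 and Anxa3 were higher (0.25 and 0.21). Wnt2, below a mean of 50 in both genotypes, was also higher (0.81). Among the 11 testable markers, 6 had a higher and 5 a lower mean log2 value in Mest pKO mice. Of 7 mesothelial markers, 5 were abundant enough and 2, Krt19 and Msln, were called at an unadjusted p of 0.05, both higher in Mest pKO mice (log2 fold changes 0.73 and 0.57, limma adjusted p = 0.253 and 0.517). All 5 had a positive log2 fold change, with a median of 0.57. Over all genes, 4.85% were called higher and 5.77% lower at this unadjusted threshold. The sum over all 7 mesothelial markers ran from 731 to 1107 in WT and from 847 to 1819 in Mest pKO mice. The T cell markers were all below a mean of 50. The part of these cells in the Dpp4 difference was not tested.

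Some markers of adipocytes and macrophages were also called at the unadjusted threshold, which 4.85% of all genes passed with higher and 5.77% with lower expression in Mest pKO mice. Of 12 adipocyte markers, 3 were higher in Mest pKO mice, the lipase gene Pnpla2, the transcription factor gene Cebpa and the glucose transporter gene Slc2a4, and none was called lower, while 8 had a higher and 4 a lower mean log2 value. The adipocyte sum overlapped, at 717505 to 1121880 in WT and 757873 to 1186170 in Mest pKO mice. Of 10 testable macrophage markers, 3 were lower, Itgam, Itgax and C1qb, and the sum over all 12 macrophage markers overlapped, at 11897 to 16479 in WT and 10048 to 13949 in Mest pKO mice. After scaling each library to its summed adipocyte markers, the log2 fold change was -0.54 for Lep and 0.48 for Dpp4, and the unadjusted limma p of Dpp4 was 0.0618. Fabp4 alone averaged 655817 normalized tags in WT and 698530 in Mest pKO mice, so that sum mostly follows Fabp4. Scaling to the mean log2 of the same markers, chosen after seeing the data, gave -0.57 for Lep and 0.445 for Dpp4. The unadjusted limma p was then 0.0293 and 0.0267. Dpp4 had an unadjusted p of at most 0.05 in 23 of 24 alternatives.

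The second question was whether Lep varied together with the other adipokines from mouse to mouse. Correlations were computed over 11 mice after the mean of each genotype had been removed, with exact permutation within genotype (86400 pairings) and adjustment over 9 relations, the 8 other adipokine genes and Mest. None passed an adjusted p of 0.1 with Pearson's r or Spearman's rho. The relation with the smallest p was that with Agt (r = 0.67, permutation p = 0.0315, adjusted p = 0.283, and rho = 0.75, permutation p = 0.0272, adjusted p = 0.245). An absolute r above that of Agt was found for 3.50% of the other genes. In the 6 WT mice alone the r of Agt was 0.61 (exact permutation p = 0.171), and without the 2 mice whose Lep lay farthest from the median, WT replicate 4 and Mest pKO replicate 5, it was 0.73 (permutation p = 0.144).

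Lep values fell into a group of 8 mice, at 42159 or more, and a group of 3 mice at 26342 or less, WT replicate 4 and Mest pKO replicates 2 and 5. Among the 8 mice the r of Lep and Agt was 0.03 (permutation p = 0.958). This comparison was chosen after seeing the data. Leaving out mice for their low Lep narrows the range of Lep, which can change r by itself. The comparison therefore cannot tell whether the relation with Agt rested on those 3 mice. With each single mouse left out, r was 0.62 to 0.75.

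Adipoq had a weak positive correlation with Lep, r = 0.31 (permutation p = 0.305, adjusted p = 0.680) and rho = 0.41 (permutation p = 0.255, adjusted p = 0.621). Without the 2 mice farthest from the Lep median r was 0.72 (permutation p = 0.0365), and among the 8 mice with higher Lep it was 0.47. Dpp4 had a negative correlation with Lep, r = -0.34 (permutation p = 0.386, adjusted p = 0.680) and rho = -0.45 (permutation p = 0.148, adjusted p = 0.621). Without WT replicate 4 its r was -0.06. In the 6 WT mice the ranks ran almost opposite, with rho = -0.94 (exact permutation p = 0.0167, adjusted p = 0.150). Pearson's r of Dpp4 in these 6 mice was -0.63 (exact permutation p = 0.146, adjusted p = 0.769). Among the 8 mice with higher Lep the r of Dpp4 was -0.76 (permutation p = 0.0625). Of the remaining genes, Rarres2 had r = -0.30, Metrnl -0.30, Nampt -0.11, Retn 0.02 and Nrg4 0.19, with permutation p between 0.364 and 0.963. Their rho values were -0.26, -0.38, -0.09, 0.02 and 0.30. Mest itself had r = 0.30 with Lep within genotypes (permutation p = 0.454, adjusted p = 0.680), and rho = 0.26 (permutation p = 0.483). The r of Mest changed sign to -0.29 in the 6 WT mice (exact permutation p = 0.590). Without the 2 mice farthest from the Lep median it was 0.84 (permutation p = 0.0806). No correlation was computed in the 5 Mest pKO mice alone.

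**Figure D4:**
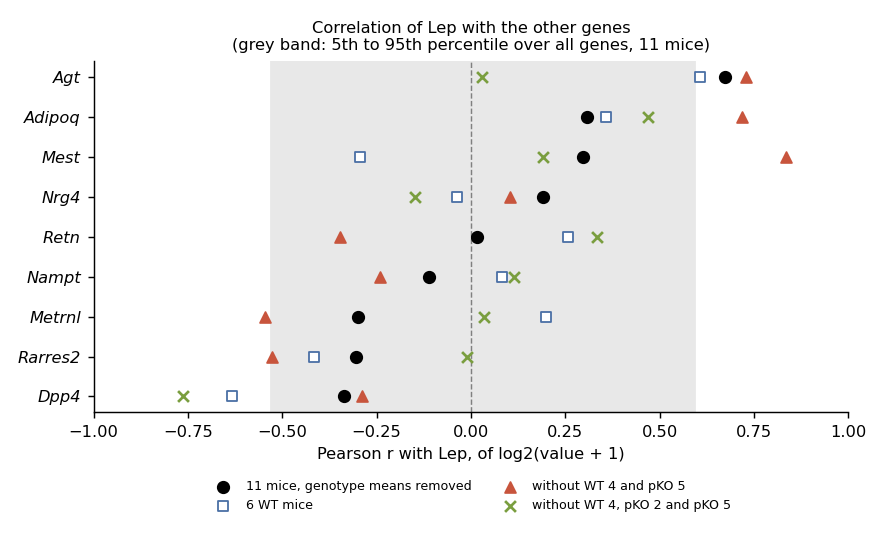
Pearson r between Lep and each other gene (horizontal axis) over 11 mice with genotype means removed (black), in 6 WT mice (blue squares), without WT replicate 4 and Mest pKO replicate 5 (red triangles) and without the 3 mice with the lowest Lep (green crosses). The grey band is the 5th to 95th percentile of r over all genes (-0.53 to 0.59). Agt, at 0.67, lies outside the band over 11 mice and at 0.03 without the 3 mice.

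Among the 36 pairs of the 9 genes, 19 had a positive r, and 3 reached an unadjusted permutation p of 0.05 while none passed adjustment over the 36. Besides Lep with Agt, these were Retn with Nampt and Adipoq with Nampt. Retn and Nampt had a positive correlation (r = 0.80, permutation p = 0.00848, adjusted p = 0.305, and rho = 0.78, permutation p = 0.0130, adjusted p = 0.327), also without the 2 mice with Retn farthest from its median (r = 0.87) and in the 6 WT mice (r = 0.72, exact permutation p = 0.0806). Adipoq and Nampt had a negative correlation (r = -0.69, permutation p = 0.0303, adjusted p = 0.378, and rho = -0.78, permutation p = 0.0210, adjusted p = 0.327), with r = -0.86 without the 2 mice with Adipoq farthest from its median and r = -0.29 in the 6 WT mice (exact permutation p = 0.432). Large correlations with Nampt were common over all genes. The 5th to 95th percentile of r with Nampt was -0.76 to 0.76, and 6.44% of genes had an absolute r of at least 0.8. The r of Adipoq with Nampt lay within that range, and the r of Retn was slightly above it.

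The genes whose pattern over the 11 mice was most like that of Lep were not adipokines. Among 9726 genes with an overall mean of at least 50, the 5 highest r values with Lep were those of Ahcyl1 (0.94), Snx27 (0.92), Zfand3 (0.92), Ptges2 (0.92) and Srrm1 (0.91). The 3 lowest were those of Zfp217 (-0.96), Homez (-0.94) and Mbnl2 (-0.93). An absolute r of at least 0.8 with Lep was reached by 61 genes, 0.627%. For Dpp4 the 3 highest were Aebp2 (0.94), Fam3a (0.94) and Dctn4 (0.93), and 140 genes, 1.44%, reached 0.8. These are descriptions over 11 points that share libraries and the removed genotype means.

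The genes that act with the adipokines were followed in 13 lists. Of 98 different genes abundant enough to test, 16 had an unadjusted limma p of at most 0.05, 3 higher and 13 lower in Mest pKO mice, and their share of 16.3% stood beside 10.6% of all genes. None passed the adjusted threshold in limma or edgeR. DESeq2 called 6, the genes Calr, Klb, Saa3, Socs3, Spp1 and Wisp2, where over all 9906 genes it called 63 lower and 58 higher. The median log2 fold change over the 98 genes was 0.02, against 0.01 over all genes.

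Of the leptin receptor and its signalling genes, 11 of 13 were testable. At the unadjusted threshold, which 10.6% of all genes passed, 1 was called. This was Socs3, the feedback inhibitor of leptin and other cytokine receptors, at 97.2 to 153 normalized tags in WT and 50.3 to 96.2 in Mest pKO mice, which did not overlap (log2 fold change -0.76, standard error 0.19, limma adjusted p = 0.283). Over all genes, 1.43% were separated in this way in either direction. The receptor gene Lepr itself had means of only 6.57 and 3.73 tags in WT and Mest pKO mice. The median over the 11 genes was 0.02. Within genotypes Socs3 had r = -0.28 with Lep over 11 mice.

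Among 10 genes for adiponectin receptors, their adaptors and the assembly of adiponectin in the endoplasmic reticulum, 3 were called at the unadjusted threshold, all lower in Mest pKO mice. That threshold called 10.6% of all genes, 5.77% lower and 4.85% higher. Calr, a chaperone of the endoplasmic reticulum, averaged 998 ± 158 in WT mice (SD, n = 6) and 601 ± 157 in Mest pKO mice (SD, n = 5), with a log2 fold change of -0.76 (limma adjusted p = 0.268), and P4hb, a protein disulfide isomerase, averaged 4267 ± 400 (SD, n = 6) and 3169 ± 497 (SD, n = 5), with a log2 fold change of -0.44 (limma adjusted p = 0.370). The genotypes did not overlap in either gene, a separation that 1.43% of all genes showed in either direction. Both genes were named for their small p, which makes such a separation more likely. Appl2, an adaptor of the adiponectin receptors, had a log2 fold change of -0.68 (limma adjusted p = 0.370). The receptors Adipor1 and Adipor2 had log2 fold changes of 0.07 and -0.04. The median over the 10 genes was -0.01.

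In the list around FGF21 and its receptors, Klb had the smallest p. Klb, the coreceptor beta-klotho, was between 105 and 225 normalized tags in WT mice and between 221 and 358 in Mest pKO mice, which overlapped by a single pair of mice (log2 fold change 0.78, standard error 0.20, limma adjusted p = 0.295). Fgf1, a growth factor that acts through the same receptors, was lower (log2 fold change -0.58, limma adjusted p = 0.423). These were the only 2 of 5 testable genes in that list past the unadjusted threshold, which 10.6% of all genes passed.

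Few genes were called in the remaining lists at the unadjusted threshold, which 10.6% of all genes passed. Of 3 resistin family and receptor genes 1 was called, Cap1, a reported resistin receptor, which was lower (log2 fold change -0.45, limma adjusted p = 0.398). Of 6 genes of the DPP4 family, its substrates and partners 1 was called, the chemokine substrate Cxcl12, also lower (-0.37, limma adjusted p = 0.480). None was called among 7 genes of NAD salvage, 8 of the renin-angiotensin system, 2 chemerin receptors and proteases, 2 of the meteorin family and 1 ErbB receptor. The most abundant genes in these lists were Nadk and Nnmt for NAD salvage (log2 fold changes 0.22 and -0.11), Ctsd and Atp6ap2 for the renin-angiotensin system (-0.30 and -0.20), Cma1 and Cmklr1 for chemerin (0.31 and 0.04), Metrn and Kit for meteorins (0.08 and 0.35) and Egfr among the ErbB receptors (-0.17). Of 14 adipocyte transcription factor genes 1 was called, Cebpa, which was higher (0.35, limma adjusted p = 0.431).

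Other secreted factors of adipose tissue gave 6 called genes of 29, with 5 lower and 1 higher in Mest pKO mice and a median log2 fold change of -0.10. Over all genes, 10.6% were called at this unadjusted threshold, 5.77% lower and 4.85% higher. Wisp2, a secreted regulator of adipogenesis, averaged 923 ± 286 in WT mice (SD, n = 6) and 439 ± 182 in Mest pKO mice (SD, n = 5), with a log2 fold change of -1.10 (limma adjusted p = 0.268). Spp1 (osteopontin), Il1rn (the interleukin 1 receptor antagonist) and Saa3 (an acute phase protein) had log2 fold changes of -0.93, -0.73 and -1.57, with limma adjusted p of 0.276, 0.370 and 0.370. The other 2, named after their values were seen, were C1qtnf1, a relative of adiponectin (-0.45, limma adjusted p = 0.467), and Rbp4, the retinol carrier, which averaged 1915 ± 1133 in WT mice (SD, n = 6) and 4725 ± 2007 in Mest pKO mice (SD, n = 5) with a log2 difference of 1.50 (limma adjusted p = 0.393).

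**Figure D5:**
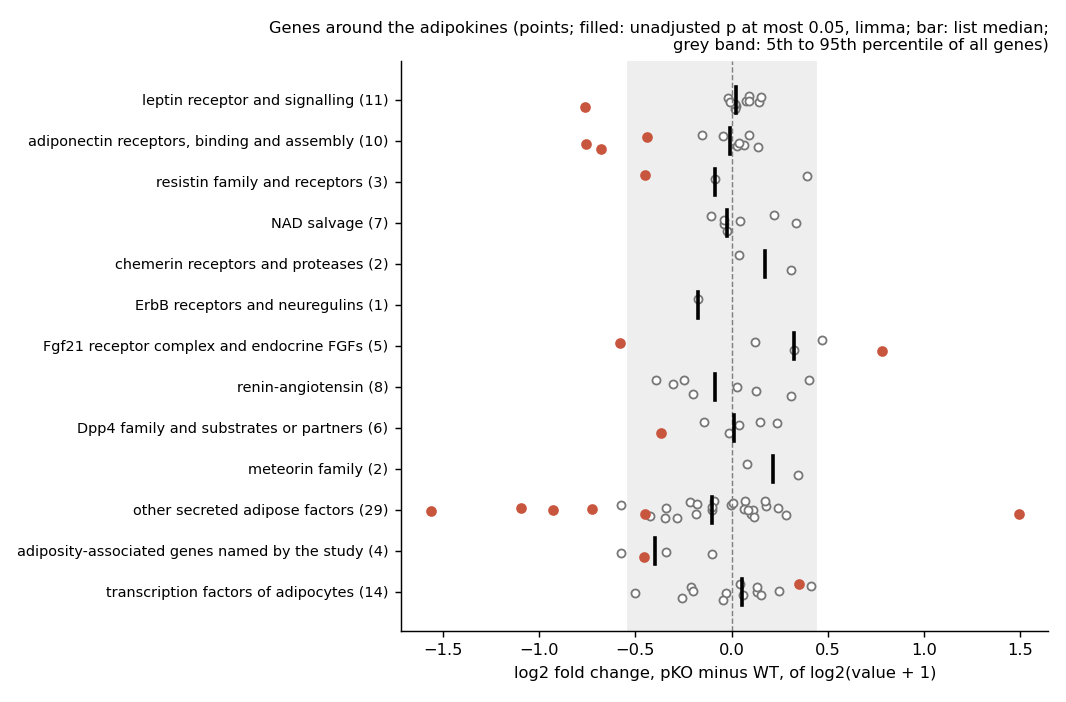
Log2 fold change, Mest pKO minus WT (horizontal axis), of the testable genes in each of the 13 lists, with the number of genes in parentheses. Filled points have an unadjusted limma p of at most 0.05, black bars are list medians and the grey band is the 5th to 95th percentile of all genes. The filled points are 3 higher and 13 lower different genes, with Rbp4 (1.50) and Saa3 (-1.57) farthest from 0.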

How the data were processed

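Tags of the 11 SAGE libraries were mapped by the authors with SOLiD SAGE software, and the submitters' processing notes name mm10 and edgeR 3.2.3. The deposited signal values are tag counts divided by the authors' size factor of each library. The value of 1 tag was 0.836 to 1.19, and 100% of the values were whole multiples of it (tolerance 0.001 tags). The authors' tag length, mapping criteria and annotation are not given in the sources used here. The minimum of 50 used below follows the study's own filter. Recovered totals were 9659740 to 14825727 tags, whose precision covers counting error only. No sequencing batch is given, and each library is a separate mouse. No 2 libraries agreed within sampling noise.

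Log2(value + 1) was compared between genotypes with limma 3.58.1 (mean-variance trend) over 15453 genes with Benjamini-Hochberg adjustment. Genes with a mean of 50 or more in WT or Mest pKO mice were called at an adjusted p up to 0.1, and separately at an unadjusted p up to 0.05. On the recovered tags, edgeR 4.0.16 called 4 genes lower and 1 higher in Mest pKO mice after adjustment, and DESeq2 1.42.0 called 63 and 58. Single values and the ratio were tested by exact two-sided permutation over all splits of the mice, with a smallest p of 0.00216. Correlations were of deviations from the genotype means. Other scalings, pseudocounts, filters and tools, a replicate block and leaving out each mouse were tried as alternatives. The code was tested on simulated data. Tag positions were read from GENCODE transcripts of GRCm38.

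The members and lists were chosen with earlier results of these data known. Genes are named that belong to the 10 adipokines, that have the smallest p-values in a list (up to 4, if below an unadjusted p of 0.05, otherwise the 2 most abundant), that have the 5 highest or 3 lowest r with Lep, or the 3 highest r with an adipokine gene called at an unadjusted p of 0.05. The separate result of 1 of the 13 lists, of genes linked to adiposity, is not reported here.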

Additional observations from a re-analysis of the deposited data

Results flagged for a closer look

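In 24 groups of values (the 9 adipokine genes, Mest, the ratio of Lep to Adipoq and the recovered tags, each in both genotypes), 2 single mice stood apart from their group by Dixon's test at the 95% level, where chance flags about 1 in 20 groups. Nampt in WT replicate 6 was 716 normalized tags, below the other 5 WT mice at 937 to 1032. Rarres2 in Mest pKO replicate 2 was 4538 normalized tags, above the other 4 Mest pKO mice at 1466 to 2341. Without WT replicate 6 the log2 fold change of Nampt was -0.09, and without Mest pKO replicate 2 that of Rarres2 was -0.69 (limma adjusted p = 0.351). The lone low Lep value of WT replicate 4, at 26224, did not pass the test.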

How the results depend on the processing

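The 9 adipokine genes were refitted under 24 alternatives, and none passed an adjusted p of 0.1 in any of the 216 values. Dpp4 stayed higher in Mest pKO mice in all 24 (adjusted p = 0.200 to 0.820), Lep stayed lower in all 24 (0.407 to 0.820), and only Nampt changed sign, between -0.093 and 0.054 with each mouse left out. The adjusted calls over all genes, 4 lower and 1 higher in Mest pKO mice, were 1 and 0 after scaling to summed adipocyte markers, 63 and 58 with DESeq2, 8 lower with an overall mean of at least 10, and between 2 and 65 lower and 1 and 26 higher with each mouse left out, most without Mest pKO replicate 2. The unadjusted calls, 572 lower and 480 higher, became 514 and 142 after scaling to summed adipocyte markers, 893 and 201 after scaling to their mean log2 (chosen after seeing the data), 737 and 330 by total counts and 480 and 515 in edgeR. Replicate numbers did not pair the mice, since the mean correlation of deviations was -0.024 for the same number and 0.0046 for other numbers, with 1 of 5 pairs over 0.1. With the replicate block on 10 mice 1 gene was lower and 0 higher, and without it on these mice (chosen after seeing the data) 2 were lower and 1 higher. The block gave a difference in log2 ratio of Lep to Adipoq of -0.68 (exact p = 0.125, where 5 pairs allow no less than 0.0625), against -0.83 to -0.48 with each mouse left out. No relation of Lep passed the adjusted threshold under 19 alternatives, and 22 of 171 correlations changed sign. Lep with Retn was -0.16 by total counts, -0.36 by summed adipocyte markers, -0.14 by their mean log2, -0.35 without the 2 farthest mice and -0.16 to 0.27 with each mouse left out. Lep with Nampt was 0.12 by summed adipocyte markers, 0.084 in WT mice, 0.12 without the 3 mice lowest in Lep and -0.27 to 0.078 with each left out. In WT mice and without those 3 mice, Nrg4 had -0.036 and -0.15 and Metrnl 0.20 and 0.036. Nrg4 ran from -0.0057 to 0.43 with each left out. Dpp4 had 0.16 by summed adipocyte markers. Mest had -0.29 in WT mice and -0.025 to 0.53 with each left out. The cause of these changes was not tested. With 6 and 5 mice, the 95% intervals given above hold the differences compatible with the data. The smallest difference that could be detected was not estimated.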
